A study of Mus musculus with 9 samples.

Results

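Ribosome footprints were examined on 10 genes that act in ISG15 conjugation and in interferon-induced ADP-ribosylation. They were chosen by symbol from the deposited gene-count table, as Isg15, Usp18, Uba7, Ube2l6, Herc6, Dtx3l, Parp9, Parp10, Parp12 and Parp14, and each had 1 row among the 36410 rows of the table. All 10 passed the filter on low counts, as did 12678 rows in all, but Usp18 passed only through the HD-homo libraries, where it is high.

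ISG15 is a small ubiquitin-like protein that cells make when interferon signals. Like ubiquitin it is attached to other proteins by an activating enzyme (UBA7), a conjugating enzyme (UBE2L6) and a ligase (HERC6 in the mouse), and USP18 removes it. USP18 also sits at the type I interferon receptor and dampens its signal. PARP enzymes transfer ADP-ribose from NAD+ onto proteins. PARP10, PARP12 and PARP14 are interferon-induced members of this family, and PARP9 works in a complex with the ubiquitin ligase DTX3L.

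Footprints, the stretches of mRNA kept from nuclease digestion by a ribosome, were counted in immortalized mouse striatal cells of strain C57/BL6, with 3 libraries for each of 3 lines. In the control line (STHdhQ7/Q7) both Htt alleles encode 7 glutamines, in the HD-homo line (STHdhQ111/Q111) both are knock-in alleles that encode 111, and the HD-het line (STHdhQ7/Q111) has 1 of each kind. All cells received cycloheximide for 10 min before harvest, and the labels name no interferon treatment. Each genotype is 1 cell line, so genotype and line cannot be told apart, and p-values measure the spread between rounds of culture of a line.

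Library totals ran from 22504543 to 41888701 counts. Levels are given as CPM, the counts of a library brought to 1e6 in all with TMM correction, and a count of 3 in 1 library, the limit that a count of 0 allows, is between 0.0714 and 0.142 CPM. This limit covers counting error only. Of 8 markers of striatal neurons, 6 stayed under 1 CPM in every library, with Drd1 and Drd2 at 0. Ppp1r1b ran from 6.42 to 16.1 CPM for control, 3.30 to 6.38 CPM for HD-het and 4.06 to 15.6 CPM for HD-homo. Penk ran from 0.802 to 1.88, from 0.645 to 0.946 and from 1.87 to 4.17 CPM in that order. Markers of neural precursors were high in part of the lines. Of 10 markers of microglia and macrophages, which respond strongly to interferon, 8 stayed under 1 CPM in every library and Cx3cr1, Tyrobp and C1qa were at 0. Their sum was 2.56 to 3.63 CPM for control, 4.06 to 9.60 CPM for HD-het and 3.29 to 3.98 CPM in HD-homo libraries. Cd68 made up most of it, with 1.96 to 2.75, 3.38 to 8.46 and 2.22 to 2.81 CPM in that order. Csf1r, at 0.727 to 1.42 CPM in HD-homo libraries, was above all other libraries, which had at most 0.473 CPM. P2ry12 went the other way, with 0.226 to 0.333 CPM for control, 0.138 to 0.378 CPM for HD-het and at most 0.0556 CPM for HD-homo. The 7 precursor markers summed to 8993 to 9862 CPM over the control and HD-het libraries and to 6017 to 6549 CPM in HD-homo libraries, but Vim, which many other cell types also express, made up most of this. The more specific Nes ran from 307 to 467 CPM for control, from 1028 to 1175 CPM for HD-het and from 6.43 to 7.65 CPM for HD-homo, and Sox2 from 48.6 to 55.4, from 29.5 to 38.6 and from 1.82 to 2.75 CPM. Pax6 was at 16.06 CPM or more in every control and HD-het library and at most 0.139 CPM in HD-homo libraries, where Dlx1, at 3.84 to 4.21 CPM, was above all other libraries and Dlx2, at 11.4 to 25.2 CPM, was above all HD-het libraries. The 6 fibroblast and mural markers summed to 2591 to 4778, 16085 to 20453 and 4630 to 5781 CPM in the 3 lines, mostly through Col1a1. Among them Pdgfra ran from 2.48 to 9.41 CPM over the control and HD-het libraries and from 113 to 182 CPM in HD-homo libraries, and Dcn from 5.19 to 12.9 and from 36.98 to 44.5 CPM. Lum was at most 0.444 CPM and highest in HD-homo libraries. Pdgfrb was instead highest for HD-het, with 33.6 to 56.5 CPM for control, 312 to 424 CPM for HD-het and 34.7 to 70.1 CPM for HD-homo. So were Col1a1 and Col3a1, the latter with 270 to 543, 1046 to 2120 and 317 to 389 CPM in that order. The 6 astrocyte markers summed to 269 to 328, 206 to 316 and 336 to 395 CPM in the 3 lines, mostly through Gja1. Slc1a3 was at 10.5 to 12.9 CPM in HD-homo libraries and at most 2.41 CPM in all others. Gfap was not raised, with at most 1.14 CPM in HD-homo and 1.30 CPM in control libraries, and Aqp4 was at 0. The lines thus differed in markers of cell type in the same libraries in which the genes below differed. The part of these differences in the results was not tested. In such bulk samples, a change in the share of cells that use a gene and a change per cell cannot be told apart.

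The modifier gene Isg15 lies on chromosome 4 (156199424 to 156200818, minus strand, GRCm38.p6) and has a coding sequence of 483 bases in 2 exons. Its level was 0.382, 0.547 and 0.489 CPM for control, 2.05, 1.93 and 1.84 CPM for HD-het and 33.05, 25.7 and 46.1 CPM for HD-homo. The lines did not overlap, with every HD-homo library above every HD-het library and those above every control library. Isg15 rose in HD-het against control cells, with a log2 fold change of 2.00 (± 0.31 SE, edgeR adjusted p = 2.01e-04) and in HD-homo against control cells by 6.16 (± 0.26 SE, edgeR adjusted p = 9.08e-09), or 71.7-fold. HD-homo exceeded HD-het cells by 4.16 (± 0.22 SE, edgeR adjusted p = 3.71e-08), or 17.9-fold.

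Promoter windows were looked up because interferon genes are known to carry the interferon-stimulated response element, the site bound by interferon-regulated factors. The RefSeq promoter table (GRCm38.p6) held windows for 6 of the 10 genes and none for Usp18, Parp9, Parp10 and Parp14. Searched on both strands as the letters GAAA, any 2 bases and GAAA again, the element was found in 1 of these 6 windows, that of Isg15, and in 3.44% of all 32851 windows of 300 bases. The gamma-activated sequence, searched as TTCNNNGAA, was found in none of the 6 and in 8.3% of all windows. The 250 bases before the start are shown 5′ to 3′ for Isg15 (chr4:156200819-156201068, minus strand), which rose most of the 6, and for Uba7 (chr9:107975317-107975566, plus strand), which passed the threshold in no comparison. Capitals mark matches to the response element.
Isg15: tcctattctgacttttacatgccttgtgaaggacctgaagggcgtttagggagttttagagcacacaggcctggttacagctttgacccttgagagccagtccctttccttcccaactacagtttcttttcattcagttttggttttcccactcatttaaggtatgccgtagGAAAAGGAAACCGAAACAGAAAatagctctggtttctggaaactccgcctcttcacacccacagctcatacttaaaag
Uba7: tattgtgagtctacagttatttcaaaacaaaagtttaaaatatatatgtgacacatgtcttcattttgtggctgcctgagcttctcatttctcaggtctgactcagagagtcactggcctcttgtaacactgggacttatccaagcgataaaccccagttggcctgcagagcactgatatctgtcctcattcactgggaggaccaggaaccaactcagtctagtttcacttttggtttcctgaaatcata
The capitals in Isg15 hold 3 overlapping matches, which begin at positions -78, -72 and -66 from the start. A match is only a description of the letters in the window.

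**Figure D1:**
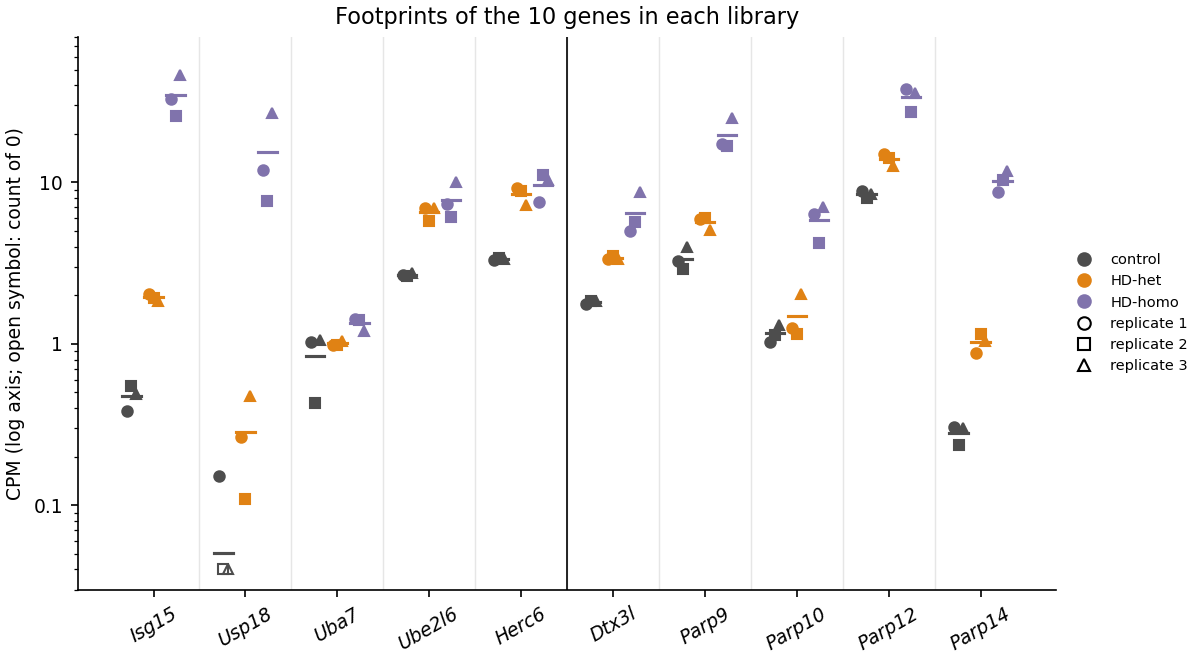
CPM of each gene (log axis) in the 9 libraries, coloured by line, with the replicate shown by the symbol and the line mean by a bar; open symbols at the foot are counts of 0. The ISG15 genes stand left of the vertical line and the PARP genes with Dtx3l right of it, and HD-homo libraries lie above all control libraries for each of the 10 genes.

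Usp18, which encodes the ISG15-removing protease, had few counts outside the HD-homo line. On chromosome 6 (121245906 to 121270917, plus strand), its counts were 4, 0 and 0 for control, 7, 4 and 10 for HD-het and 427, 202 and 610 for HD-homo. In CPM the HD-homo libraries were at 11.9, 7.72 and 27.1, the HD-het libraries at 0.266, 0.110 and 0.473, and control replicate 1 at 0.153. The HD-homo libraries lay above all others, while HD-het and control libraries overlapped. Against control, the log2 fold change of Usp18 in HD-homo cells was 8.37 (± 0.79 SE, edgeR adjusted p = 6.36e-06). Its size rested on few control counts, since the ratio of summed counts, 1239 to 4, was 347 on equal scaled totals with an exact binomial 95% interval of 135 to 1275, which covers counting error only and not the spread between libraries. Without control replicate 1, both control libraries left were at 0, and the HD-homo mean of 15.6 CPM was 169-fold a floor of 3 counts per library. This floor bounds the control side only and leaves out the spread of the HD-homo libraries. The log2 fold change was 7.59 without control replicate 2 and 7.72 without HD-homo replicate 3. The change of 2.47 in HD-het cells did not pass the threshold (± 1.49 SE, edgeR adjusted p = 0.171). It was 1.69 without control replicate 2 and 5.94, fitted against control libraries at 0, without control replicate 1, again with neither past the threshold (edgeR adjusted p = 0.371 and 0.0839). HD-homo exceeded HD-het cells by 5.90 (± 0.63 SE, edgeR adjusted p = 8.19e-06), or by 5.25 without HD-homo replicate 3. Gm44148, annotated on the opposite strand, overlaps 124 coding bases of Usp18, and whether counting used strand is not given in the sources used here.

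The enzymes that attach ISG15 had smaller fold changes in HD-homo cells than the modifier. Ube2l6, the conjugating enzyme (chromosome 2, 84798828 to 84810003, plus strand), had 2.67, 2.62 and 2.75 CPM in control, 6.98, 5.78 and 6.95 CPM in HD-het and 7.37, 6.12 and 10.02 CPM in HD-homo libraries. Every mutant library was above every control library, and the mutant lines overlapped. Ube2l6 rose by a log2 fold change of 1.29 in HD-het (± 0.18 SE, edgeR adjusted p = 1.22e-04) and of 1.54 in HD-homo cells (± 0.18 SE, edgeR adjusted p = 4.06e-05). Between the mutant lines the difference of 0.25 did not pass the threshold (95% interval -0.12 to 0.63, edgeR adjusted p = 0.211), but it did without HD-homo replicate 2 (0.40, edgeR adjusted p = 0.0408).

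Herc6, the ligase of the mouse pathway (chromosome 6, 57580992 to 57665136, plus strand), showed the same order of lines. It had 3.32, 3.43 and 3.35 CPM in control, 9.30, 8.83 and 7.28 CPM in HD-het and 7.59, 11.2 and 10.3 CPM in HD-homo libraries, again with no overlap between control and mutant lines and with overlap between the mutant lines. Its log2 fold changes against control were 1.33 in HD-het (± 0.16 SE, edgeR adjusted p = 4.15e-05) and 1.52 in HD-homo cells (± 0.16 SE, edgeR adjusted p = 1.93e-05). HD-homo and HD-het cells differed by 0.18 (95% interval -0.16 to 0.52, edgeR adjusted p = 0.309), which passed the threshold without HD-homo replicate 1 (0.34, edgeR adjusted p = 0.0398). A predicted gene on the same strand, Gm45193, covers 42.2% of the Herc6 coding sequence in the GENCODE annotation, so the share of fragments given to Herc6 is uncertain.

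Uba7, the activating enzyme that starts the chain (chromosome 9, 107975567 to 107984056, plus strand), was the 1 gene of the 10 that passed the threshold in no comparison. Its levels were 1.03, 0.428 and 1.05 CPM in control, 0.987, 0.990 and 1.04 CPM in HD-het and 1.42, 1.41 and 1.20 CPM in HD-homo libraries. Although each HD-homo library was above every library of the other lines, the log2 fold change against control was 0.75 (95% interval 0.08 to 1.41, edgeR adjusted p = 0.0635), and that of HD-het cells was 0.32 (95% interval -0.37 to 1.01, edgeR adjusted p = 0.394). The mutant lines differed by 0.43 (95% interval -0.23 to 1.08, edgeR adjusted p = 0.222). These values rest on 18 to 51 counts per library, and on 18 in control replicate 2, which lay apart from the other control libraries. Gm20661, on the same strand, covers 6.62% of the Uba7 coding sequence. Without control replicate 2 the change in HD-homo cells was 0.37 (edgeR adjusted p = 0.247), and without control replicate 3 it was 0.96 and passed the threshold (edgeR adjusted p = 0.0446).

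Of the PARP genes, Parp14, the longest and a mono-ADP-ribosyltransferase with macrodomains (chromosome 16, 35831892 to 35871518, minus strand), moved most. It had 0.306, 0.238 and 0.301 CPM in control, 0.873, 1.16 and 1.04 CPM in HD-het and 8.73, 10.3 and 11.8 CPM in HD-homo libraries, with no overlap between any of the lines. Parp14 rose by a log2 fold change of 1.89 in HD-het (± 0.26 SE, edgeR adjusted p = 9.81e-05) and of 5.19 in HD-homo cells (± 0.21 SE, edgeR adjusted p = 7.84e-09), or 36.6-fold. HD-homo exceeded HD-het cells by 3.31 (± 0.18 SE, edgeR adjusted p = 4.70e-08). Gm49730, on the same strand, covers 2.02% of the Parp14 coding sequence.

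Parp12, a zinc-finger PARP found at the Golgi and in stress granules (chromosome 6, 39086412 to 39118349, minus strand), had the highest control level of the PARP genes per kilobase of coding sequence. Its values were 8.86, 8.06 and 8.43 CPM in control, 14.9, 14.2 and 12.7 CPM in HD-het and 37.97, 27.3 and 35.8 CPM in HD-homo libraries. The lines did not overlap, and the log2 fold changes were 0.73 in HD-het (± 0.13 SE, edgeR adjusted p = 6.49e-04) and 2.00 in HD-homo cells against control (± 0.13 SE, edgeR adjusted p = 3.49e-07). The mutant lines differed by 1.27 (± 0.13 SE, edgeR adjusted p = 5.41e-06).

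Parp10, a mono-ADP-ribosyltransferase (chromosome 15, 76232995 to 76243440, minus strand), rose only in HD-homo cells among the comparisons with control. It had 1.03, 1.14 and 1.32 CPM in control, 1.25, 1.16 and 2.03 CPM in HD-het and 6.34, 4.21 and 7.01 CPM in HD-homo libraries, so that HD-het and control libraries overlapped. Its log2 fold change was 2.33 in HD-homo cells (± 0.25 SE, edgeR adjusted p = 2.02e-05), whereas 0.31 in HD-het cells did not pass the threshold (95% interval -0.31 to 0.93, edgeR adjusted p = 0.360). The difference between the mutant lines, which is the test of 1 change against the other, was 2.02 (± 0.25 SE, edgeR adjusted p = 2.83e-05).

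Dtx3l and Parp9 encode partners in 1 complex and are neighbours on chromosome 16. Dtx3l (35926515 to 35939027, minus strand) and Parp9 (35938470 to 35972621, plus strand) run in opposite directions from starts whose annotations overlap by 558 bases. Dtx3l had 1.76, 1.86 and 1.84 CPM in control, 3.38, 3.49 and 3.36 CPM in HD-het and 5.03, 5.66 and 8.78 CPM in HD-homo libraries. Parp9 had 3.25, 2.90 and 3.99 CPM in control, 5.92, 6.00 and 5.11 CPM in HD-het and 17.3, 16.8 and 25.2 CPM in HD-homo libraries. Both genes were graded across the lines with no overlap. In HD-het cells the rises were alike in size, with log2 fold changes of 0.90 for Dtx3l (± 0.21 SE, edgeR adjusted p = 0.00356) and 0.76 for Parp9 (± 0.19 SE, edgeR adjusted p = 0.00481). In HD-homo cells they were 1.82 for Dtx3l (± 0.21 SE, edgeR adjusted p = 2.92e-05) and 2.55 for Parp9 (± 0.18 SE, edgeR adjusted p = 7.35e-07), and HD-homo exceeded HD-het cells by 0.91 (± 0.20 SE, edgeR adjusted p = 0.00156) and 1.79 (± 0.18 SE, edgeR adjusted p = 4.80e-06).

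**Figure D2:**
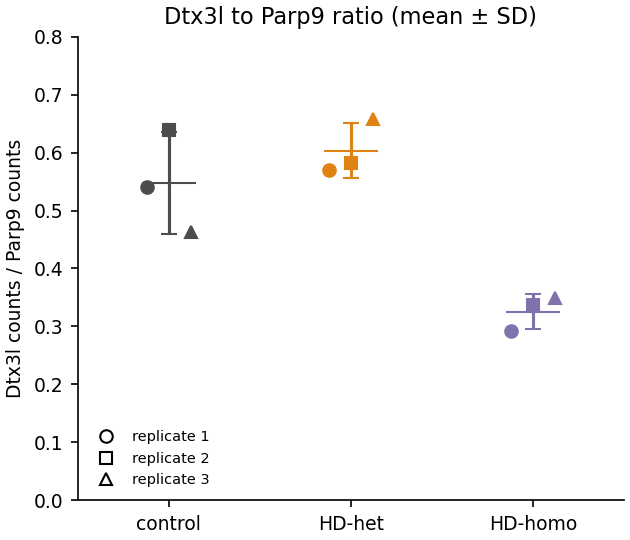
Ratio of Dtx3l to Parp9 counts in each library, by line, with the mean and SD of 3 libraries. The HD-homo libraries lie between 0.291 and 0.349, below all control and HD-het libraries.

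The balance of both partners was compared within each library. There were 0.541, 0.639 and 0.462 Dtx3l counts per Parp9 count in control, 0.571, 0.583 and 0.657 in HD-het and 0.291, 0.336 and 0.349 in HD-homo libraries. The means were 0.548 ± 0.0887, 0.603 ± 0.0471 and 0.325 ± 0.0301 (SD, n = 3) in that order, and HD-homo libraries lay below all others. The log2 ratio differed by -0.74 between HD-homo and control and by -0.89 between HD-homo and HD-het cells, each with a two-sided exact permutation p of 0.1, the smallest that 3 libraries against 3 can give (adjusted p 0.15 over 3 pairs of lines). For HD-het against control the difference was 0.15 (exact permutation p 0.4, adjusted 0.4). Exons of Parp9 overlap 8.20% of the Dtx3l coding sequence on the opposite strand, so a small part of the fragments could be counted under either name.

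Over the 10 genes, HD-het cells had 7 higher and 0 lower than control at an adjusted p under 0.05 by edgeR, where 31.0% of all genes tested were higher and 29.1% lower. In edgeR and in DESeq2 alike, the log2 fold changes of all 10 genes were above 0 in the 3 comparisons, so that 0 were lower at an unadjusted p under 0.05 as well. HD-homo cells had 9 higher and 0 lower than control, beside 23.3% and 22.3% of all genes. HD-homo against HD-het cells gave 7 higher and 0 lower, beside 34.6% and 32.8%. Any difference among the lines was called for 9 of the 10 genes, Uba7 being the exception, and for 78.4% of all genes. The median log2 fold change of the 10 genes was 1.10 in HD-het against control, 2.16 in HD-homo against control and 1.53 between the mutant lines, where all genes had a median of 0.02 in each. Without Usp18, whose test was open only through its HD-homo counts, 7, 8 and 6 of 9 genes were higher, with medians of 0.90, 2.00 and 1.27. Of 12333 genes that passed the filter without the HD-homo libraries, 3852, 2674 and 4111 were higher, with medians of 0.014, 0.0027 and -0.0036. The 9 genes called for any difference include Usp18.

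By the raw levels, every HD-het library was above every control library for 7 of the 10 genes, beside 36.2% of all genes. Every HD-homo library was above every control library for 10 genes, beside 28.3%, and above every HD-het library for 8, beside 35.6%. Both counts include Usp18, which passed the filter on low counts only through the HD-homo libraries. Its place in them was thus largely set by the filter. A full order, with HD-homo above HD-het and HD-het above control in every library, held for 5 genes, namely Isg15, Dtx3l, Parp9, Parp12 and Parp14, and for 3.57% of all genes. These comparisons share libraries, each line entering more than 1 of them.

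**Figure D3:**
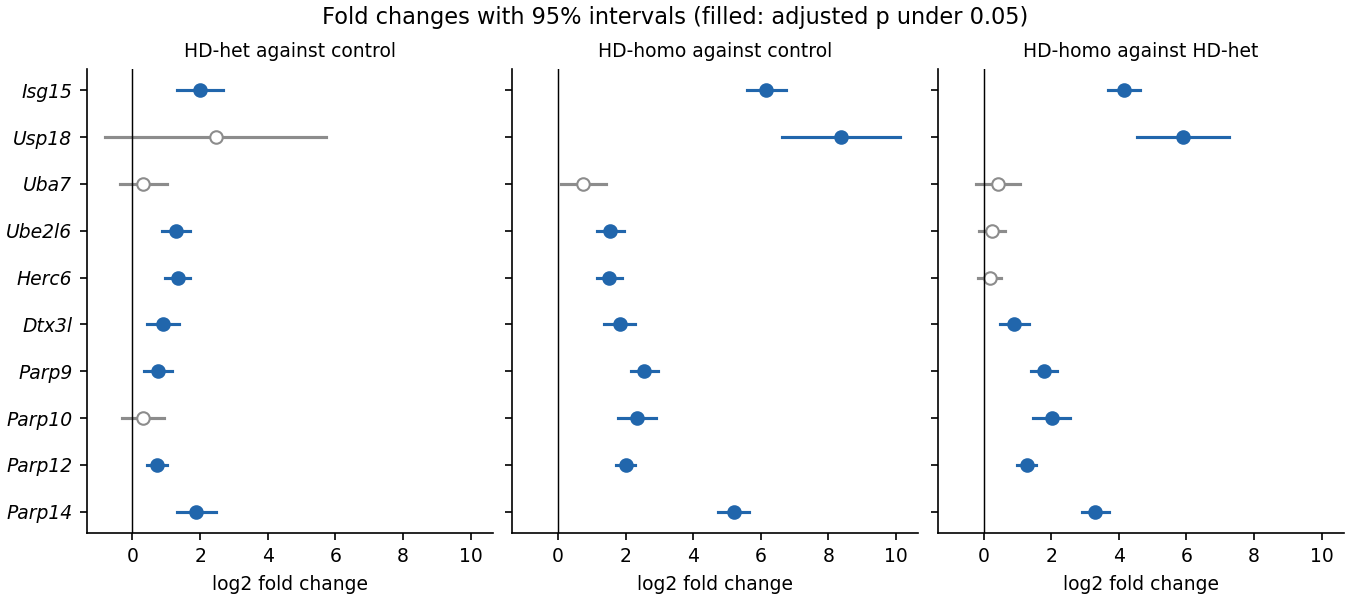
Fitted log2 fold changes with 95% intervals in the 3 comparisons, filled where the adjusted p was under 0.05. Ube2l6 and Herc6 lie at 1.29 and 1.33 in HD-het against control and at 0.25 and 0.18 between the mutant lines, unlike Isg15, Usp18 and Parp14.

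Levels of different genes were set side by side per kilobase of coding sequence, with the longest coding transcript of GENCODE M21. In control cells Ube2l6 was the densest at 5.84 ± 0.142 CPM per kb (SD, n = 3), followed by Parp12 at 3.96 ± 0.187, and neither overlapped its neighbour in the order. Isg15 was the fifth at 0.979 ± 0.174 CPM per kb and overlapped Herc6 above it and Dtx3l below it. Parp14 and Usp18 were lowest and overlapped each other. In HD-het cells Isg15 was the third at 4.02 ± 0.214 CPM per kb, below Ube2l6 at 14.3 and Parp12 at 6.53, with no overlap among these.

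In HD-homo cells the order was another one. Isg15 was densest at 72.3 ± 21.5 CPM per kb (SD, n = 3), and its lowest library, at 53.1, was above the highest of Ube2l6, at 21.8. Ube2l6 at 17.1 ± 4.35, Parp12 at 15.8 ± 2.64 and Usp18 at 14.1 ± 9.22 CPM per kb followed and overlapped one another in that order. Uba7, the activating enzyme, was last at 0.458 ± 0.0432 CPM per kb, below Parp14 at 1.88 ± 0.277 with no overlap.

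**Figure D4:**
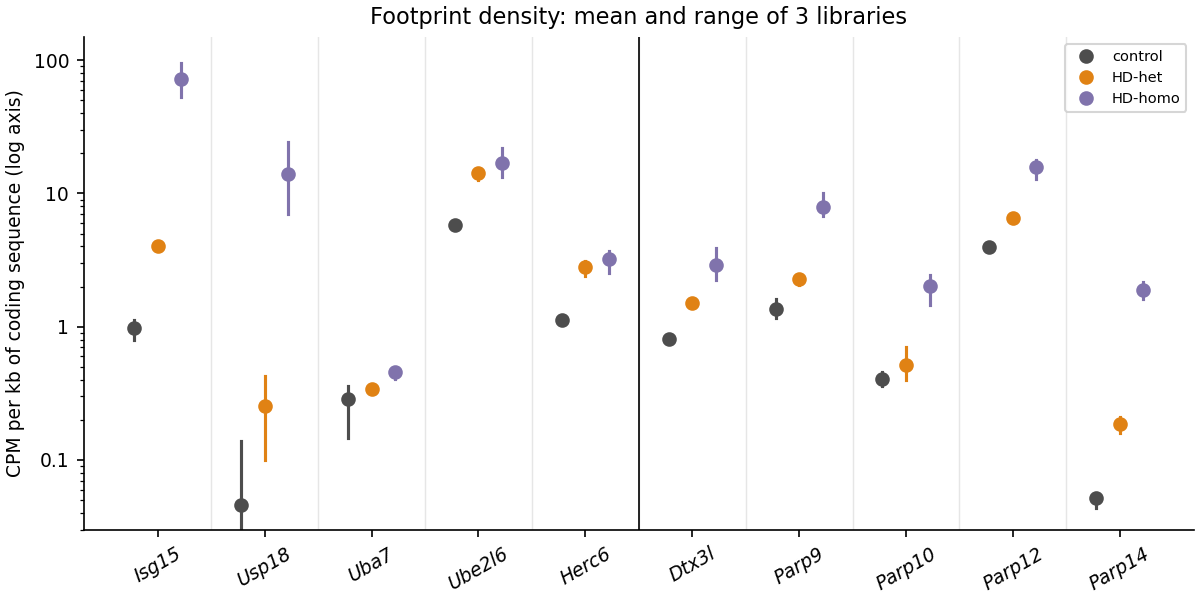
CPM per kb of coding sequence on a log axis, with the mean as a point and the range of 3 libraries as a line; the control range of Usp18 begins at 0, which the axis cannot show. Isg15 goes from the fifth place in control (0.979) to the top in HD-homo cells (72.3), while Uba7 lies between 0.286 in control and 0.458 in HD-homo cells.

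The HD-homo libraries also varied among themselves. Summed over the 10 genes, footprints came to 137, 116 and 183 CPM in HD-homo replicates 1, 2 and 3, against 21.2 to 23.5 CPM in control and 41.9 to 45.9 CPM in HD-het libraries. Replicate 3 was highest for 7 genes, namely Isg15, Usp18, Ube2l6, Dtx3l, Parp9, Parp10 and Parp14, and replicate 2 was lowest for 6. The order of replicate 3 over 1 over 2 held for 5 of the 10 genes and was not shared by the rest. Of 30 other interferon-stimulated genes, 21 were highest in replicate 3 and 15 had that order, with sums of 482, 418 and 661 CPM over the list, in which abundant genes weigh most. The spread was widest for Usp18, with a coefficient of variation of 65.4%, and narrowest for Uba7, with 9.42%. Without HD-homo replicate 3 the 10 genes still gave 9 higher than control and 7 higher than HD-het cells. The shares of all genes were not taken for this setting.

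**Figure D5:**
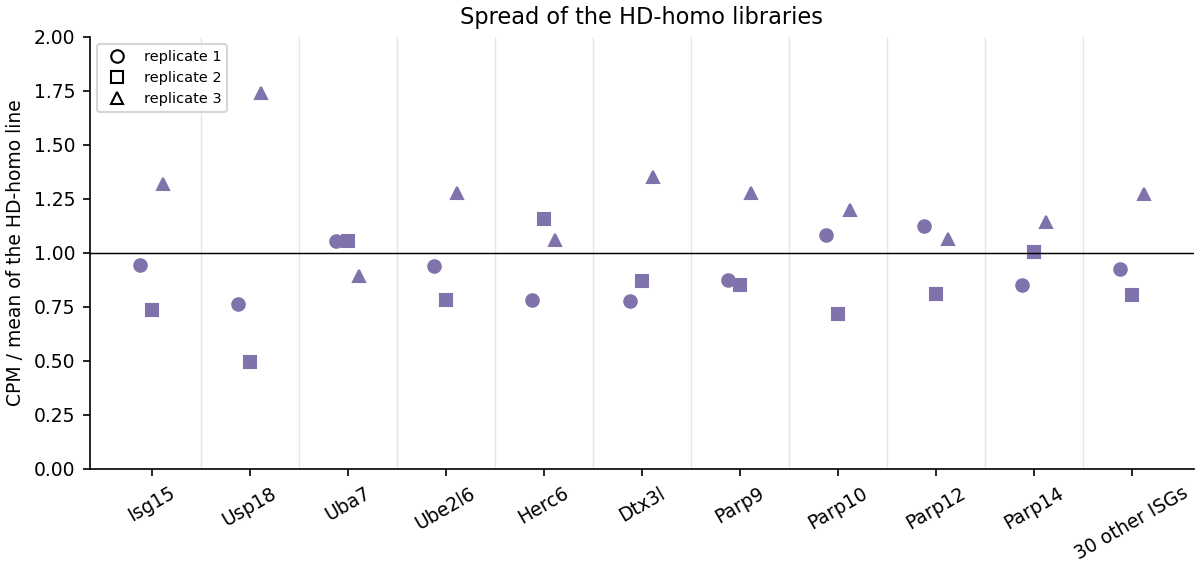
CPM of each HD-homo library over the mean of the line, for the 10 genes and the sum of 30 other interferon-stimulated genes (ISGs). Replicate 3 (triangle) is the highest for 7 of the 10 genes and for the sum, and Usp18 has the widest spread.

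Other genes of the pathway are described by list, and the shares of all genes called stand beside each count. Of 14 genes of interferon receptors and JAK-STAT signalling, 5 were higher and 3 lower in the HD-het line against control (median log2 fold change of 0.28), 6 higher and 2 lower in the HD-homo line against control (median 0.33), and 6 higher and 3 lower between HD-homo and HD-het cells (median 0.12). Over all genes 31.0% were higher and 29.1% lower in the first comparison, 23.3% and 22.3% in the second and 34.6% and 32.8% in the third, so that in HD-het cells and between the mutant lines the counts of this list were near the shares of all genes. STAT2 and IRF9 belong to the factor that drives interferon genes. Irf9 averaged 1.76 CPM for control, 5.97 CPM for HD-het and 19.6 CPM for HD-homo, and its log2 fold changes were 1.75 (± 0.20 SE, edgeR adjusted p = 2.47e-05) and 3.47 (± 0.19 SE, edgeR adjusted p = 9.31e-08). Stat2 rose by 1.37 in HD-homo cells (± 0.13 SE, edgeR adjusted p = 6.00e-06) and had 0.11 in HD-het cells (edgeR adjusted p = 0.507).

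The receptor chains differed from one another. Ifnar1 rose in HD-het cells by 1.01 (± 0.12 SE, edgeR adjusted p = 2.49e-05) and had 0.22 in HD-homo cells (edgeR adjusted p = 0.143). Ifnar2, the chain that USP18 binds, rose in HD-het cells by 0.87 (± 0.16 SE, edgeR adjusted p = 6.21e-04) and had 0.41 in HD-homo cells (edgeR adjusted p = 0.0506). HD-homo cells had less of both receptor genes than HD-het cells did (edgeR adjusted p = 9.87e-05 and 0.0227). Of the chains of the interferon gamma receptor, Ifngr2 rose in HD-homo cells by 0.87 against control (± 0.13 SE, edgeR adjusted p = 2.77e-04) and by 0.56 against HD-het (± 0.13 SE, edgeR adjusted p = 0.00291), while Ifngr1 fell by 0.61 against control (± 0.18 SE, edgeR adjusted p = 0.0175). Jak1 rose by 0.35 in HD-homo cells (± 0.09 SE, edgeR adjusted p = 0.00730) and had 0.19 in HD-het cells (edgeR adjusted p = 0.0809), and Tyk2 passed the threshold in neither (edgeR adjusted p = 0.108 and 0.415).

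Of 12 other ADP-ribosyltransferases tested, 1 was higher and 3 lower in HD-het cells (median 0.02) and 2 were higher and 3 lower in HD-homo cells against control (median 0.06), with 4 higher and 3 lower between the mutant lines (median -0.11). All genes had 31.0% higher and 29.1% lower, 23.3% and 22.3%, and 34.6% and 32.8%, and the lower counts of the list against control and its higher count between the mutant lines were near these shares. Zc3hav1, which encodes the antiviral zinc-finger protein ZAP, rose from a mean of 52.6 in control to 137 CPM in the HD-homo line (log2 fold change of 1.38, ± 0.07 SE, edgeR adjusted p = 5.48e-08) and had 0.09 in HD-het cells (edgeR adjusted p = 0.327). Parp8 had the largest fall, from a mean of 12.2 in control to 3.57 CPM in the HD-het line (-1.77, ± 0.15 SE, edgeR adjusted p = 3.21e-06), and HD-homo exceeded HD-het cells by 1.91 (± 0.15 SE, edgeR adjusted p = 9.23e-07). Parp1, the main DNA-damage PARP, fell by 0.26 in HD-het (± 0.08 SE, edgeR adjusted p = 0.0148) and by 0.55 in HD-homo cells (± 0.08 SE, edgeR adjusted p = 1.83e-04). Tiparp fell by 0.88 in HD-homo cells (± 0.19 SE, edgeR adjusted p = 0.00276) and had -0.03 in HD-het cells (edgeR adjusted p = 0.898), and Parp11 passed the threshold in neither (edgeR adjusted p = 0.120 and 0.322).

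Of 6 tested genes that remove ADP-ribose, 2 were higher and 0 lower in HD-het cells, also 0 at an unadjusted p under 0.05 by edgeR (median 0.11), and 1 was higher and 2 lower in HD-homo cells against control (median -0.18). Between the mutant lines 1 was higher and 2 were lower (median -0.20). With 31.0% of all genes higher in HD-het against control and 32.8% lower between the mutant lines, the 2 of 6 in each were near the shares of all genes. The widest change was that of Macrod2, which rose by 2.95 in HD-het cells (± 0.31 SE, edgeR adjusted p = 1.43e-05) and fell by 1.46 in HD-homo cells (± 0.43 SE, edgeR adjusted p = 0.0174).

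Of 15 tested relatives of the conjugating enzymes, which serve ubiquitin and other modifiers, 3 were higher and 5 lower in HD-het cells (median -0.04), 4 higher and 7 lower in HD-homo cells against control (median -0.20), and 5 higher and 5 lower between the mutant lines (median 0.08). Beside 31.0% higher and 29.1% lower, 23.3% and 22.3%, and 34.6% and 32.8% of all genes, most of these counts were near the shares of all genes. Trim25, an interferon-inducible ubiquitin ligase of the RNA-sensing pathway that can also ligate ISG15, fell from a mean of 3.61 in control to 0.116 CPM in the HD-het line (log2 fold change of -5.01, ± 0.24 SE, edgeR adjusted p = 5.27e-08) and rose to 26.5 CPM in HD-homo cells (2.87, ± 0.13 SE, edgeR adjusted p = 1.29e-08). Its HD-het mean lay within the 0.0825 to 0.142 CPM of a count of 3 in HD-het libraries, so the size of the fall is uncertain.

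Of 12 other ubiquitin-like modifiers tested, among them the ubiquitin, NEDD8 and SUMO genes, 0 were higher and 9 lower in HD-het cells (median -0.53), and 4 were higher and 0 lower in HD-homo cells against control (median 0.16). Between the mutant lines 11 were higher and 0 lower in HD-homo cells (median 0.86), and edgeR's counts of 0 were also 0 at an unadjusted p under 0.05. Of all genes 31.0% were higher and 29.1% lower in the first comparison, 23.3% and 22.3% in the second and 34.6% and 32.8% in the third. The largest rise in HD-homo against control cells was that of Urm1, at 0.71 (± 0.10 SE, edgeR adjusted p = 1.80e-04).

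The 30 other interferon-stimulated genes had 26 tested members, of which 15 were higher and 1 lower in HD-het cells (median 1.67) and 24 higher and 0 lower in HD-homo cells against control (median 5.19), with 24 higher and 0 lower between the mutant lines (median 3.26). Over all genes 31.0%, 23.3% and 34.6% were higher and 29.1%, 22.3% and 32.8% lower. However, 10 of the 26 passed the filter on low counts only through the HD-homo libraries, where they are high, so their calls were largely set by the filter. Of the other 16 genes 12 were higher and 1 lower, 14 and 0, and 14 and 0, with medians of 1.501, 4.78 and 2.13. Of all 12333 genes that passed without the HD-homo libraries, 3852 were higher and 3643 lower, 2674 and 2833, and 4111 and 4162. Over all 26, edgeR gave at an unadjusted p under 0.05 counts of 17 higher and 1 lower, 24 and 0, and 25 and 0. The lower gene was Eif2ak2, which encodes the RNA-activated kinase PKR, with a log2 fold change of -0.32 (± 0.09 SE, edgeR adjusted p = 0.00903). In HD-homo against control cells the remaining genes of the list, Ifit2 and Bst2, had -0.34 and 0.55 and did not pass the threshold (edgeR adjusted p = 0.218 and 0.272).

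The genes whose pattern over the 9 libraries was most like that of Isg15 were found by the root mean square difference in log2(CPM + 0.5), centred on each gene's mean. They were Ptges (0.224), a prostaglandin E synthase, Mb21d1 (0.239), an older symbol of the DNA sensor cGAS, Thsd7a (0.262), Cavin2 (0.292), a caveolar coat protein, and Xaf1 (0.296), an interferon-induced apoptosis factor. Ptges averaged 0.0286 CPM for control, 0.558 CPM for HD-het and 18.2 CPM for HD-homo, and Cavin2 15.2, 54.6 and 647 CPM in that order of lines. Among the other 9 genes described here Usp18 was nearest to Isg15 by this measure (0.472), then Parp14 (0.617), and Uba7 was farthest (2.01). The order depends on the measure. By Pearson correlation, Parp14 (0.995), Parp9 (0.991) and Parp12 (0.985) stood above Usp18 (0.977). The added 0.5 CPM also exceeds the mean of Usp18 in control (0.0509 CPM) and HD-het cells (0.283 CPM), which shrinks its change. It likewise exceeds the control means of Isg15 (0.473 CPM), Ptges (0.0286 CPM), Mb21d1 (0 CPM), Thsd7a (0.344 CPM) and Xaf1 (0.160 CPM). Their changes are thus shrunk to unlike degrees, and their places near Isg15 rest in part on the added value. These are descriptions over 9 libraries of 3 lines, most of whose spread lies between the lines.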

How the data were processed

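The authors' deposited table holds raw fragment counts, 1 row for each gene symbol and 1 column for each library, neither normalized nor pooled. Per the submitters' processing notes, cutadapt, Bowtie 1.0.1 and build mm10 were used. The counting program, annotation and strand setting are not given in the sources used here. No mRNA libraries were used, so that values are footprint abundances. Column names gave the sample of each column. Library totals ran between 22504543 and 41888701.

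All 9 libraries entered 1 edgeR fit (version 4.0.16, R 4.3.3, quasi-likelihood F test) with TMM factors, the filterByExpr filter and a mean per line. Benjamini-Hochberg adjustment covered the 12678 genes tested, and the threshold was 0.05. The SE is the size of the log2 fold change over the root of F. The fit was first tested on simulated data. Ratios within a library were compared by exact permutation. Coordinates are those of RefSeq (GRCm38.p6), and coding lengths and overlaps those of GENCODE M21.

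Members and lists were chosen with earlier results of these data known. Named were all 10 members, signal and PARP genes, at most the largest rise and fall of each list, and the 5 genes nearest to Isg15. Ifngr1, Ifngr2, Ifit2, Bst2, Eif2ak2 and the marker genes given singly were named after their values were seen. Some genes that this rule names are not reported here. The alternatives used RLE factors, plain totals, DESeq2 1.42.0, other count filters, a fit of 6 libraries, a term for replicate number, stricter thresholds, or 1 library fewer.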

Additional observations from a re-analysis of the deposited data

How the results depend on the processing

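Of 473 refitted log2 fold changes of the 10 genes under 16 other settings, 468 kept their direction and side of the threshold, 4 passed it newly and 1 changed sign. The latter was Uba7 in HD-het against control cells, which ran from -0.058 without control replicate 2 to 0.53 without control replicate 3. A required change of at least 2-fold left 4 genes called in HD-het against control. Shares of all genes called were taken for the main fit only, so none stand beside the counts under other settings. For any difference the main share was 78.4%. With 1 library left out, 7 genes were called in HD-het and 9 to 10 in HD-homo against control, 7 to 8 between the mutant lines, and 9 for any difference. A minimum of 10 counts in every library removed Usp18 and Parp14. The mean log2 Dtx3l to Parp9 ratio was also compared between lines with 1 library left out. Its difference ran from 0.03 to 0.27, from -0.86 to -0.62 and from -0.94 to -0.81 in the same 3 comparisons.

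With the replicate block, 8, 9 and 7 genes were called in the 3 comparisons and 9 for any difference. Usp18 passed the threshold in HD-het against control cells only under this block among the settings run (log2 fold change 2.47, edgeR adjusted p = 0.0353). Same-numbered libraries correlated by -0.356 to 0.175 in their deviations, with 1 of 9 pairs over 0.1, so the numbers were not taken to pair the samples. Depth limits Usp18 in control and HD-het cells, with 4 and 21 counts in all, and Uba7, with 18 to 51 counts per library.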
